A study of Fukomys damarensis and Heterocephalus glaber and Mus musculus with 160 samples.

Results

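The data described here are the H3K4me3 peak lists of the Damaraland mole-rat (Fukomys damarensis), 2 from liver and 5 from heart, out of 116 peak lists and 160 samples in the whole series. The members were taken by their labels, which name the species, the tissue and the antibody. All 7 libraries came from wild-type adult males by chromatin immunoprecipitation sequencing (ChIP-seq) of whole diced tissue, so every cell type of the organ contributed. The liver libraries came from animals DMR1 and DMR4, with an estimated age of 48 months. The heart libraries came from DMR1, DMR4 and DMR11 (estimated 48 months) and from DMR2 and DMR3 (estimated 36 months). DMR1 and DMR4 therefore gave both tissues. Library identifiers in the titles begin with do for both liver libraries and for heart DMR2 and DMR4. They begin with vl for heart DMR1, DMR3 and DMR11, so the prefix is partly tied to tissue. The titles do not say what the prefixes mean. The 10 H3K27ac, 10 H3K4me1 and 9 transcription factor lists of the same species served as readouts that took no part in choosing the regions. The series covers the same histone marks in naked mole-rat, guinea pig and mouse.

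H3K4me3 is trimethylation of lysine 4 on histone H3. It is laid down by the COMPASS family of methyltransferases at the start sites of active and poised genes, and it is commonly used to map promoters. H3K27ac is acetylation found at active promoters and enhancers, and H3K4me1 is the methylation state typical of enhancers and promoter flanks. Broad H3K4me3 domains are known from genes that define a cell type. Positions are given on the build DMR_v1.0 of the files, scaffold by scaffold. No annotation or genome of that build was used here, so regions are named by position and carry no gene name or sequence, and the tissue labels were not checked against marker genes.

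No measure of the size or form of the lists separated liver from heart. Liver held 35216 peaks in DMR1 and 28820 in DMR4. Heart held 32574 peaks in DMR1, 38483 in DMR2, 33367 in DMR3, 53676 in DMR4 and 20803 in DMR11. Heart DMR11 was the shortest list and covered 11.2 Mb, while the other heart libraries covered 23.7 to 27.1 Mb and the liver libraries 18.7 and 28.8 Mb. The median peak was 339 bases wide in liver DMR1 and 726 in liver DMR4. In heart it was 581, 494, 512, 188 and 444 bases in DMR1, DMR2, DMR3, DMR4 and DMR11, so the ranges of the tissues overlapped. Liver minus heart was 0.26 on the log2 scale for median width (exact permutation p = 0.714, two-sided, adjusted p = 0.857 over 5 measures). The differences in number of peaks, bases covered, share of peaks of 2 kb or more and median fold enrichment also had an adjusted p of 0.857. With 2 libraries against 5, no p below 0.0476 was possible. The depth behind each list is unknown, since peak lists carry no read totals.

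Peaks of the 7 lists that shared at least 1 base were merged into 77656 regions, and each region was described by the number of liver and heart libraries with a peak in it. The largest reproducible class was shared: 14179 regions had a peak in all 7 libraries and are called common. Another 2650 regions had a peak in both liver libraries and in no heart library (liver-only), and 808 had a peak in all 5 heart libraries and in no liver library (heart-only). A further 37224 regions were found in 1 heart library alone, and 9026 in 1 liver library alone. Heart DMR4 supplied 24408 of these, with a median width of 158 bases, and heart DMR11 supplied 57.

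**Figure D1:**
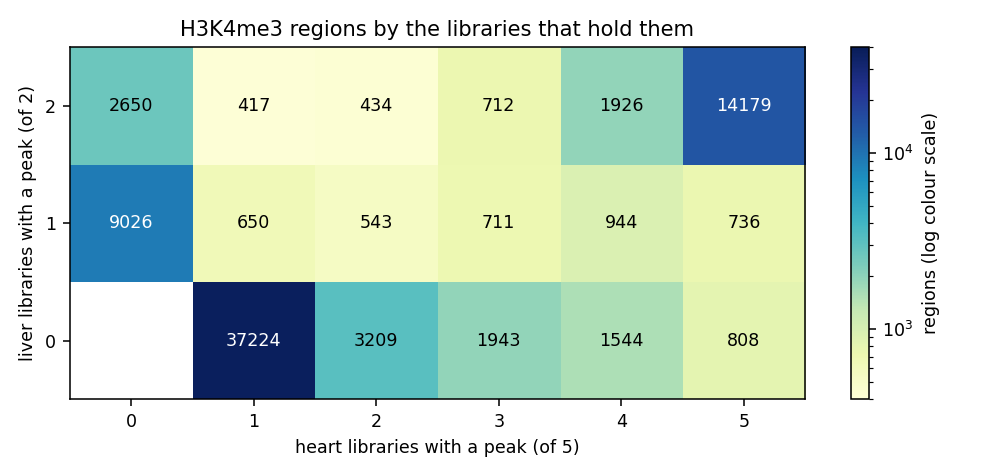
Number of merged H3K4me3 regions by how many of the 2 liver libraries (vertical axis) and how many of the 5 heart libraries (horizontal axis) had a peak there, with colour on a log scale. The fullest cells are the 37224 regions found in 1 heart library alone, the 14179 found in all 7 libraries and the 9026 found in 1 liver library alone.

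The difference between 2650 and 808 cannot be read as more liver-specific than heart-specific sites. A heart-only region had to be called in 5 lists and a liver-only region in 2. Without heart DMR11 the heart-only count was 2267, with 2651 liver-only regions. Without liver DMR1 there were 6485 liver-only and 880 heart-only regions, and without liver DMR4 there were 10186 and 1477. When 2 heart libraries at a time were set against the 2 liver libraries, over all 10 pairs, heart-only counts ran from 920 to 5336 with a median of 3062.5, and liver-only counts from 2773 to 3811 with a median of 3058.5. Liver-only exceeded heart-only in 5 of the 10 pairs. With only the animals that gave both tissues, DMR1 and DMR4, there were 3193 liver-only, 2938 heart-only and 16119 common regions.

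Where all 7 libraries had a peak, libraries of the same tissue ranked the regions by width more alike than libraries of different tissues did. Spearman's rho of region width was 0.907 between the liver libraries and 0.817 to 0.942 between heart libraries, against 0.692 to 0.813 between tissues. For the fold enrichment, which is the peak caller's own value over its control, rho was 0.857 in liver and 0.629 to 0.804 in heart, against 0.525 to 0.693 between tissues, so the ranges for heart and for pairs of tissues overlapped. These are descriptions across 14179 regions, which share libraries and controls and are not replicates. Presence of a peak separated the tissues less clearly: the share of regions held by both libraries of a pair, of those held by either, was 0.617 in liver, 0.337 to 0.671 in heart and 0.300 to 0.550 between tissues. The pairs from the same animal stood at 0.441 for DMR1 and 0.330 for DMR4, inside the range of the other pairs between tissues.

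Tissue-restricted regions were generally weaker than common ones. The median fold percentile within a list, averaged over the libraries holding the region, was 38.8 at liver-only, 50.1 at heart-only and 72.1 at common regions. A mean percentile within the top 10% was found at 1744 common (12.3%), 84 liver-only (3.17%) and 2 heart-only regions (0.248%). These averages cover different libraries for each class. The median percentile at heart-only regions was 72.9 in heart DMR4 and 19.0 in heart DMR11, against 84.1 and 55.2 at common regions. Some tissue-restricted regions were nevertheless broad: 15.1% of liver-only regions (400) and 19.9% of heart-only regions (161) averaged 2 kb or more under peaks, against 9.63% of common regions (1366). Within single libraries, the liver-only and common shares of such regions were 11.8% and 7.68% in liver DMR1, and 19.2% and 18.0% in liver DMR4. Heart-only and common shares were 30.4% and 15.9% in heart DMR1, 26.6% and 14.1% in DMR2, and 25.5% and 12.2% in DMR3. They were 19.8% and 8.83% in heart DMR4, and 3.34% and 2.15% in heart DMR11. Median width at liver-only regions was 432 and 815.5 bases in liver DMR1 and DMR4. At heart-only regions it was 1312.5, 1207, 1104, 941 and 371 bases in heart DMR1, DMR2, DMR3, DMR4 and DMR11. Since the number of lists a region had to appear in differs between the classes, their widths and folds are not compared by a test.

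The highest-ranking liver-only region was KN123095.1:6640065-6646905, with peaks over 5241 bases in liver DMR1 and 6601 in liver DMR4 and folds of 93.9 and 271. No heart library had a peak there. All 5 liver H3K27ac libraries and 1 of 5 heart H3K27ac libraries had a peak in it, and so did all 8 liver factor libraries. KN122816.1:7134660-7138683 was next, 3842 and 4024 bases wide in liver with folds of 85.0 and 252. H3K27ac was present there in 5 liver and 3 heart libraries. The region was chosen for lacking heart H3K4me3 peaks, and lists of these marks differ in length, so the marks are not ranked by how restricted they were. KN125302.1:113144-117202 (folds 77.9 and 224) and KN123079.1:1474916-1478291 (folds 80.2 and 199.8) carried H3K27ac in 5 liver and 0 heart libraries.

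Among heart-only regions, KN125239.1:228990-231556 ranked highest. It was 2397, 2509, 2548, 2344 and 1819 bases wide in heart DMR1, DMR2, DMR3, DMR4 and DMR11, with folds of 69.6, 134.6, 59.6, 60.7 and 20.9. H3K27ac was found there in 5 heart and 0 liver libraries. The 1 library for TBX5, a T-box factor of heart development, had a peak in it and none of the liver factor libraries did. KN121537.1:2969322-2972384, KN124648.1:458737-461246 and KN120821.1:2277406-2281807 also held H3K27ac in all 5 heart libraries and in no liver library. KN124648.1:458737-461246 had no factor peak at all, but carried H3K4me1 in 5 liver and 0 heart libraries, the reverse of its H3K4me3 and H3K27ac.

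H3K27ac, which was not used to define the classes, followed the tissue of H3K4me3. At liver-only regions, 94.8% ± 1.60 of regions (SD, n = 5) had an H3K27ac peak in liver libraries and 18.7% ± 7.75 in heart libraries. The difference was 76.0 percentage points (exact permutation p = 0.00794, two-sided, adjusted p = 0.0159 over 6 comparisons), and the liver range of 92.5% to 96.2% did not overlap the heart range of 6.26% to 25.3%. At heart-only regions the order was turned: 17.0% ± 3.26 in liver and 85.2% ± 8.69 in heart, a difference of -68.2 points (exact permutation p = 0.00794, adjusted p = 0.0159). At common regions the shares were 90.4% ± 2.83 and 89.8% ± 11.99, a difference of 0.61 points that did not pass the test (exact permutation, adjusted p = 0.960). Within the 4 animals with both tissues, with the animal as a block, the differences were 76.0 and -67.9 points at liver-only and heart-only regions. The exact adjusted p was then 0.188, where 4 pairs allow no unadjusted p below 0.125.

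**Figure D2:**
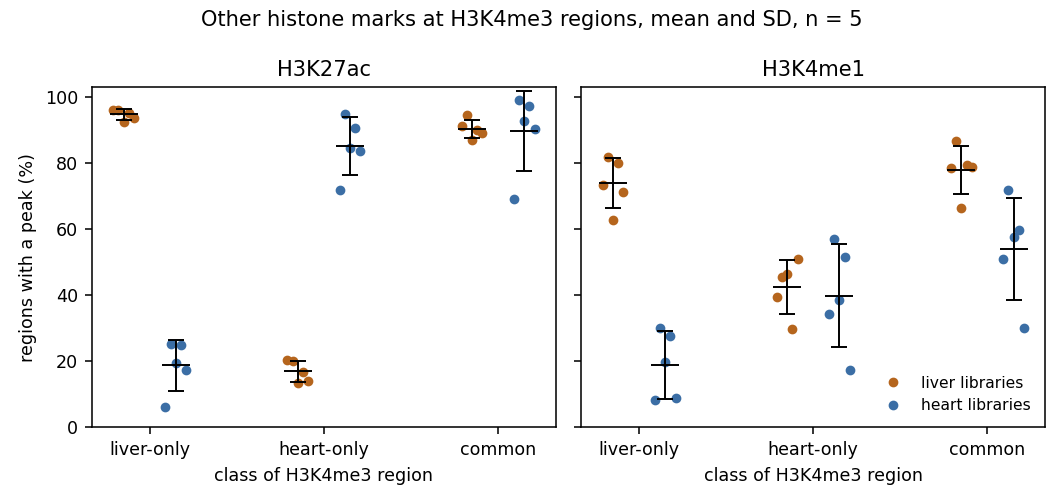
Share of liver-only, heart-only and common H3K4me3 regions with an H3K27ac (left) or H3K4me1 (right) peak. Each point is 1 library (liver brown, heart blue), and bars give the mean and SD of 5 libraries. H3K27ac shares of liver and heart separate at both tissue-restricted classes and overlap at common regions.

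H3K4me1 was less symmetric. At liver-only regions it was found at 73.9% ± 7.61 of regions in liver and 18.9% ± 10.2 in heart (difference 55.0 points, n = 5 against 5, exact permutation, adjusted p = 0.0159). At heart-only regions it was found at 42.5% ± 8.19 in liver and 39.8% ± 15.6 in heart, and the difference of 2.72 points did not pass the test (exact permutation, adjusted p = 0.867). Common regions gave 78.0% ± 7.29 and 54.0% ± 15.4, a difference of 24.0 points (exact permutation, adjusted p = 0.0238). H3K4me1 lists held 130602 to 165394 peaks in liver and 32893 to 158541 in heart, and with the same number of peaks per library the difference at common regions was -1.12 points (exact permutation, adjusted p = 0.651). With the same setting the difference was 30.6 points at liver-only regions (exact permutation, adjusted p = 0.0159) and -5.27 points at heart-only regions. Within the 4 animals with both tissues, it was 53.2 points at liver-only and 17.8 at common regions (exact adjusted p = 0.188).

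Taking a mark as present where at least 2 libraries of the tissue had a peak, the state of each class in the other tissue differed. In heart, 68.5% of liver-only regions (1816 of 2650) had neither mark, 17.7% had both and 8.11% had H3K4me1 alone. In liver, 44.6% of heart-only regions (360 of 808) had neither mark, 16.2% had both and 35.5% (287) had H3K4me1 alone. The H3K4me1 share at heart-only regions moved with list length: with the same number of peaks per library, its mean fell from 42.5% to 12.8% in liver and from 39.8% to 18.0% in heart. The 35.5% rests on the full lists.

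Liver factor peaks were concentrated at liver-only regions. CEBPA, FOXA1, HNF4A, HNF6 and RXRA are transcription factors of hepatocyte gene regulation, and RXRA is also the common partner of several nuclear receptors. In each of the 8 liver factor libraries, peaks were more frequent at liver-only regions than at heart-only regions, with a median log2 ratio of 3.01 and a range from 1.79 (HNF6) to 3.78 (RXRA in DMR1). All 8 also had a larger share at liver-only than at common regions, by a median log2 ratio of 1.25. RXRA in DMR4 had peaks at 76.1% of liver-only, 46.8% of common and 9.65% of heart-only regions. HNF4A in DMR4 had peaks at 56.8%, 31.8% and 12.7% of those classes, and CEBPA in DMR4 at 59.4%, 30.2% and 7.05%. FOXA1 in DMR1 had peaks at 21.3%, 5.22% and 2.60%. At least 4 of the 8 liver factor libraries met at 46.2% of liver-only regions, 13.2% of common and 2.48% of heart-only regions. The heart library for TBX5 went the other way, with 10.1% of liver-only, 15.3% of common and 26.5% of heart-only regions. All 8 liver factor libraries came from DMR1 and DMR4, the animals whose liver H3K4me3 lists defined the classes, so they are not 8 independent animals. There were 1 or 2 libraries per factor, and liver-only and heart-only regions differ in width, so no test was made.

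**Figure D3:**
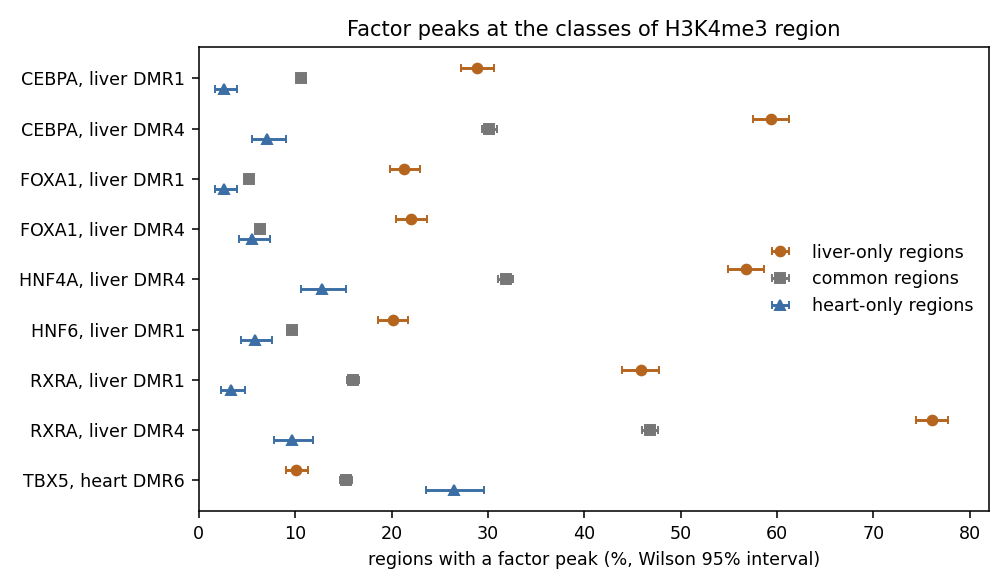
Share of each class of H3K4me3 region with a peak of each factor library (percent), with Wilson 95% intervals that cover counting error only. In all 8 liver libraries the liver-only share lies above the common share and the heart-only share lies below it, and for TBX5 in heart the order is reversed.

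Liver-only regions lay in runs more often than heart-only regions, which the rules of the classes favour in part. In the order along the scaffolds of regions found in at least 2 libraries, 48.6% of liver-only regions (1287) were in 483 unbroken runs of 2 or more, and 71 runs held 4 or more. For heart-only regions the figures were 15.3% (124 regions), 59 runs and 1 run. A class with more regions forms runs more readily. Regions held by 2, 3 or 4 heart libraries and no liver library (3209, 1943 and 1544) also break a heart-only run. A region held by 2 liver libraries and no heart library is always liver-only, so liver-only runs have no such breaks. Regions were merged only where peaks shared a base, so close fragments of 1 domain also count as a run. The median merged region spanned 847.5 bases in the liver-only and 1486 in the heart-only class. None of these effects was tested. The longest liver-only run held 10 regions over 41.7 kb at KN122569.1:17626827-17668567. Some of them lay close together: 1 ended at position 17659488 and the next began at 17659584. All 10 had H3K27ac in at least 1 liver library, 9 had it in all 5, none had it in a heart library, and all 10 had a liver factor peak. The longest heart-only run held 4 regions over 15.1 kb at KN122016.1:4106285-4121401. All 4 had H3K27ac in all 5 heart libraries and in no liver library. Liver libraries were not empty there: 2 of the 4 had a liver factor peak, and all 4 had H3K4me1 in 2 to 5 liver libraries. Its widest region, KN122016.1:4106285-4109921, was 2694, 3147, 3192, 2540 and 1163 bases wide in heart DMR1, DMR2, DMR3, DMR4 and DMR11.

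**Figure D4:**
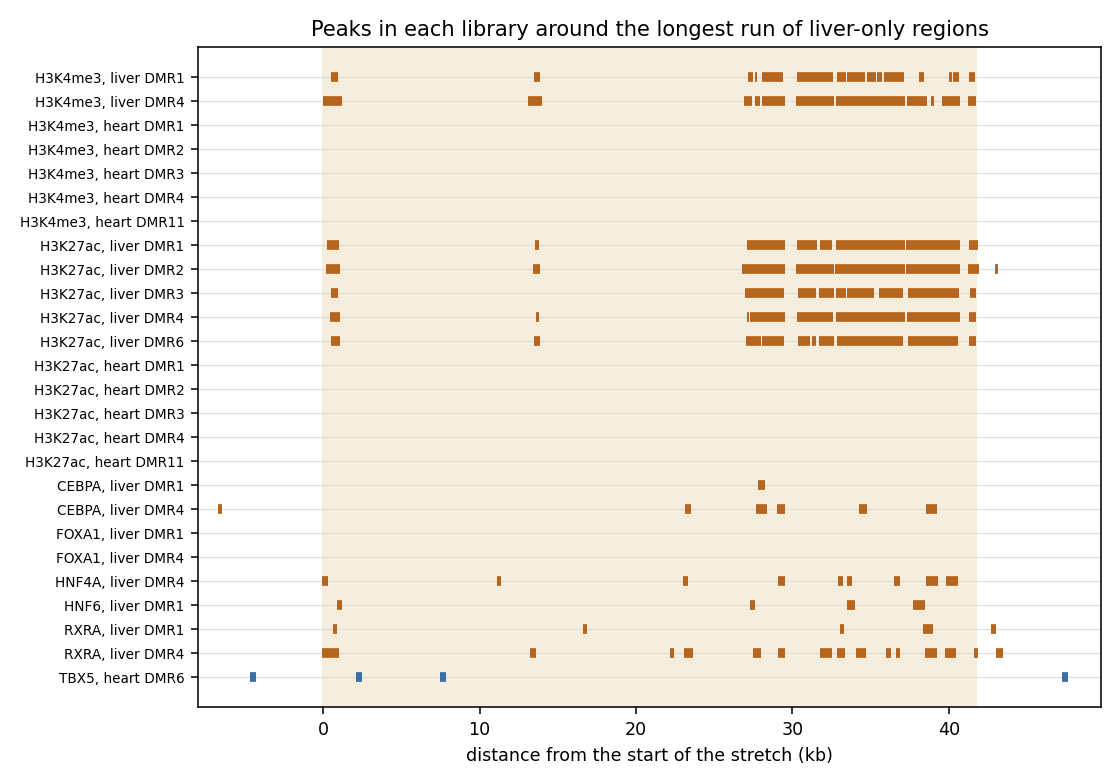
Peaks of each H3K4me3, H3K27ac and factor library (rows, liver brown, heart blue) along the run of 10 liver-only regions, by distance in kb from its start. The shaded band marks the 41.7 kb run. Liver H3K4me3 and H3K27ac peaks crowd the last part of the band, no heart H3K4me3 or H3K27ac peak falls in it, and 2 heart TBX5 peaks lie in its first part.

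The width and the fold of H3K4me3 differed between the tissues at some of the common regions. After quantile normalisation over the 7 libraries, 1645 of 14179 regions differed in width (limma, Benjamini-Hochberg adjusted p below 0.05), which is 11.6% of those tested. Of these, 824 (5.81%) were wider in liver and 821 (5.79%) wider in heart, and 3555 regions had an unadjusted p below the threshold. Fold differed at 686 regions (4.84%), 342 (2.41%) higher in liver and 344 (2.43%) higher in heart, and 2410 regions had an unadjusted p below the threshold. Quantile normalisation gives every library the same set of values, so equal numbers in both directions are partly built in. With the animals DMR1 and DMR4 alone and the animal as a block, 816 regions differed in width (422 wider in liver and 394 in heart), and 731 of the 1645 were among them. The same setting gave 893 regions that differed in fold (413 higher in liver and 480 in heart), more than for width. The counts for width and fold are not ranked here, since changes of 1 log2 unit put into simulated data were recovered at 56 of 100 regions for width and 1 of 100 for fold. Without any normalisation, 160 regions differed in width (108 wider in liver, 52 in heart) and 1 in fold. The counts rested on both liver libraries: without liver DMR1 they were 512 for width and 46 for fold, and without liver DMR4 they were 986 and 77. None of the main calls turned direction under these settings.

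Most regions called for fold were also called for width in the same direction, while most regions called for width were not called for fold. Over all common regions, 5.81% were wider in liver and 5.79% wider in heart. Of the 342 regions with a higher fold in liver, 202 (59.1%) were also wider in liver, which is 24.5% of the 824. In heart, 225 regions passed both tests, 65.4% of the 344 and 27.4% of the 821. No region passed in opposite directions. Width and fold come from the same peaks, so they are not separate evidence.

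The called regions differed by about 1 log2 unit at the median, 1.05 for those wider in liver and -1.06 for those wider in heart. In the deposited widths, those wider in liver had medians of 1657.5 and 2214.5 bases in liver DMR1 and DMR4. In heart the same regions had medians of 900.5, 1054, 895, 816 and 478.5 bases in DMR1, DMR2, DMR3, DMR4 and DMR11, all below both liver values. Those wider in heart had medians of 1717, 1676, 1525, 1394 and 817 bases in heart and 409 and 865 in liver, so the liver DMR4 median lay above that of heart DMR11. Liver and heart widths as deposited did not overlap at 736 of the 824 regions (89.3%) and at 278 of the 821 (33.9%), against 587 of the 12534 regions not called for width (4.68%). The regions were called from these same widths after normalisation. The medians and the separation therefore describe the calls and are no separate support for them. After normalisation the values of liver and heart did not overlap at 30.2% of all common regions for width and 22.5% for fold.

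**Figure D5:**
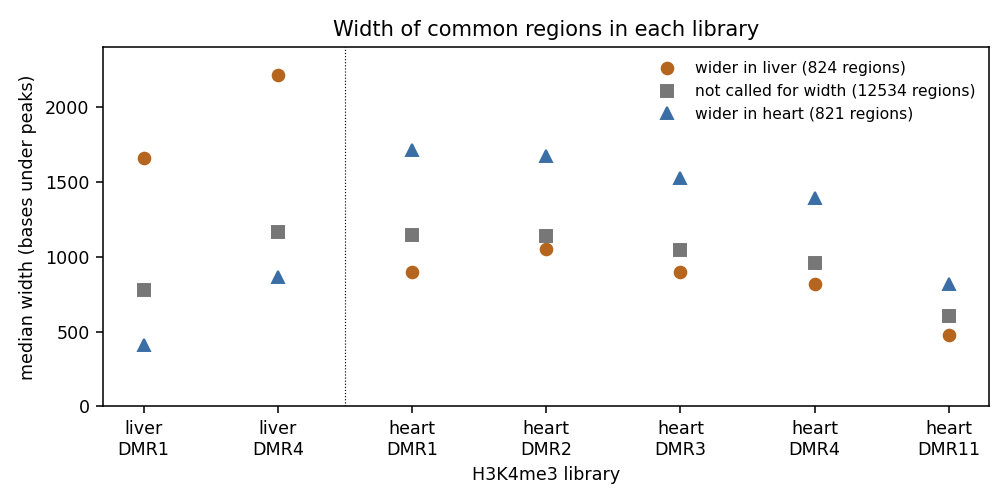
Median number of bases under H3K4me3 peaks in each of the 7 libraries at common regions wider in liver (824, brown), wider in heart (821, blue) and not called for width (12534, grey). Both liver medians of the wider-in-liver regions, 1657.5 and 2214.5 bases, lie above all 5 heart medians, and heart DMR11 is low for every set. The sets were called from these same widths after normalisation.

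The region most widened in liver was KN121670.1:2062552-2070166. Its peaks covered 6051 and 7594 bases in liver DMR1 and DMR4, and 413, 596, 320, 646 and 185 bases in heart DMR1, DMR2, DMR3, DMR4 and DMR11. The difference was 3.99 log2 units (SE 0.30, limma adjusted p = 0.00015). Liver factor peaks of 6 of the 8 libraries were in it. KN120745.1:3025825-3029300 (3.50 log2 units, SE 0.31, limma adjusted p = 0.00023) and KN122569.1:3145827-3150594 (3.22, SE 0.23, limma adjusted p = 0.00013) followed, and both carried H3K27ac in all 5 liver libraries and in 5 and 4 heart libraries. In these places a narrow heart peak sat inside a liver domain of several kilobases.

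The region most widened in heart was KN122754.1:668674-674028, with 5287, 4882, 4728, 4444 and 3553 bases in heart DMR1, DMR2, DMR3, DMR4 and DMR11 and 223 and 728 in liver (-3.39 log2 units, SE 0.20, limma adjusted p = 0.00012). H3K27ac was found there in 5 heart and 4 liver libraries. KN121080.1:1744540-1749023 (-3.34, SE 0.29, limma adjusted p = 0.00021) had H3K27ac in 5 heart and 3 liver libraries. KN122365.1:186503-192681 (-3.26, SE 0.38, limma adjusted p = 0.00083) had it in 5 heart and 0 liver libraries, together with a TBX5 peak. None of these 3 held a liver factor peak.

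Of the 4 widest common regions, 3 did not pass the test for width. KN122776.1:6185872-6196560 was 7814 and 9261 bases wide in liver and 10190, 9463, 9859, 8677 and 7667 in heart, a normalised difference of 0.03 log2 units (SE 0.16, limma adjusted p = 0.932). All 9 factor libraries had a peak in it. The exception was KN123207.1:1169058-1181022, with 1345 and 2041 bases in liver against 11922, 11097, 11537, 11403 and 3918 in heart (-2.51 log2 units, SE 0.22, limma adjusted p = 0.00021). Its fold was also higher in heart (-2.18 log2 units, SE 0.36, limma adjusted p = 0.0018). H3K27ac was nonetheless present there in all 5 libraries of each tissue.

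For fold, the largest difference toward liver was at KN125163.1:112524-115448, with folds of 100.1 and 272 in liver against 4.89, 7.62, 18.2, 12.4 and 6.98 in heart (3.87 log2 units, SE 0.48, limma adjusted p = 0.00031). KN122115.1:13465-16188 (3.48) and KN122559.1:2723612-2726588 (3.30) were next. Toward heart it was KN120636.1:9324998-9328948, with 89.1, 136.3, 112.2, 38.2 and 28.4 in heart against 5.67 and 8.37 in liver (-3.12 log2 units, SE 0.36, limma adjusted p = 0.00019). KN121700.1:43970-48799 (-2.79) and KN120688.1:10786240-10787231 (-2.77) followed. KN120688.1:10786240-10787231, which spans 992 bases, also passed as wider in heart (-1.13 log2 units, SE 0.27, limma adjusted p = 0.023), but not with the animal as a block (-1.21, limma adjusted p = 0.051). Its fold call was lost without liver DMR4 (-2.22 log2 units, limma adjusted p = 0.0648).

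Extra span in a tissue lay mostly on the left or mostly on the right, at regions called for width and at others. At 733 of 823 regions wider in liver (89.1%, Wilson 95% interval 86.7% to 91.0%), at least 75% of the added span was on the same side, with a median gain of 1035 bases. At regions wider in heart this held for 613 of 821 (74.7%, 71.6% to 77.5%), with a median gain of 777 bases. Among common regions not called for width whose span was longer by 200 bases or more, the shares were 77.1% of 1879 longer in liver and 72.6% of 2354 longer in heart. The share at regions wider in heart was therefore near that background, and regions are not independent replicates. Median gains in the background were 347 and 334 bases, so the 89.1% at regions wider in liver has no comparison of like size.

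H3K27ac followed the width. At regions wider in liver, liver libraries covered 85.8% ± 5.89 of the bases with H3K27ac peaks and heart libraries 39.5% ± 15.8 (n = 5 each). The difference of 46.3 points passed the exact permutation test (adjusted p = 0.0238). At regions wider in heart, liver libraries covered 25.3% ± 6.71 and heart libraries 68.3% ± 13.3, a difference of -43.0 points (exact permutation, adjusted p = 0.0238). At regions not called for width the difference was 0.33 points (exact permutation, adjusted p = 0.952). With the animal as a block in 4 animals, the differences were 46.7 and -43.2 points (exact adjusted p = 0.188). For H3K4me1, liver minus heart was 12.4 points of the bases where liver was wider, 14.4 where heart was wider and 14.4 elsewhere (exact permutation, adjusted p = 0.124, 0.0317 and 0.0357), so the first did not pass. With equal numbers of peaks none of these differences passed the test.

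Liver factor peaks followed the width as well. All 8 liver factor libraries had a peak at a larger share of the regions wider in liver than of those wider in heart, with log2 ratios from 0.99 to 3.71 and a median of 1.96. RXRA in DMR4 was at 74.3% of regions wider in liver, 21.9% of those wider in heart and 46.7% of those not called. CEBPA in DMR4 was at 58.5%, 16.2% and 29.2%. In 7 of the 8 libraries the share at regions wider in heart was below that at regions not called. HNF6 in DMR1 was the exception, at 9.50% and 9.06%. These libraries came from DMR1 and DMR4, the animals of the liver H3K4me3 lists. Called regions had wider peaks in the tissue of the call, which leaves more bases for a factor peak to overlap, and this was not adjusted for. TBX5 in heart, with 1 library, was at 24.2% of regions wider in heart, 17.8% of those wider in liver and 14.5% of those not called. Its share was thus raised in both directions. TBX5 was at 23.0% of regions with a higher fold in heart and 20.5% of those with a higher fold in liver. Its list held 139418 peaks, against 19398 to 75849 in the liver factor lists. Equal numbers of peaks were not tried at these regions, so its contrast is not ranked against that of the liver factors.

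Summits of common regions were at nearly the same place in both tissues. The median distance between the highest summits of 2 libraries averaged 50.7 bases over pairs of different tissues and 48.5 over pairs of the same tissue. The excess of 2.25 bases did not pass the one-sided exact permutation test (p = 0.286). Summits more than 500 bases apart made up 3.86% to 5.68% of common regions between tissues and 2.92% to 4.45% within a tissue.

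The tissue effect on median peak width was not shown to be particular to this species. Liver minus heart was 0.26 log2 units in the Damaraland mole-rat, 0.06 in naked mole-rat, 0.08 in guinea pig and 0.62 in mouse. The differences from those species, 0.20, 0.18 and -0.36, had exact permutation p-values of 0.788, 0.843 and 0.688, and all had an adjusted p of 0.843. Animals of those species were younger than the Damaraland mole-rats, so species and age cannot be told apart here. In these bulk tissues, fewer cells carrying the mark and less of the mark per cell cannot be told apart.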

How the data were processed

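ChIP-seq peak lists were used as deposited, 1 per library. MACS2 is named in the submitters' processing notes. Its version, the aligner and the read depth were not given in the sources used here. For each peak the authors' lists give its position, a fold (a linear ratio over the control), and a p-value and q-value as −log10. Each list belongs to 1 library, per the labels, and its peaks depend on depth and on the control. Regions were merged with Python 3.11.15 and tested with limma 3.58.1 in R 4.3.3 on quantile-normalised log2 widths and log2 folds of 14179 common regions. Shares were compared by exact permutation over libraries. On simulated data with 100 regions changed by 1 log2 unit and 100 by 2, the width fit recovered 56 and 91 and the fold fit 1 and 38, with 14 and 1 false calls. The simulation drew independent normal noise for each region and shifted libraries only by their medians. Errors shared between regions and lists of unlike shape are not in it, so real error rates may differ. DMR1 and DMR4 gave both tissues, so the animal pairs their libraries per the labels. Deviations of their common-region widths correlated at -0.17 and -0.02, and those of pairs from different animals at -0.28 to 0.28. With 2 liver libraries the liver deviations mirror each other, so these values cannot show whether the animal matters. Members and lists were chosen with earlier results of these data known. Named regions are the 4 with the highest mean fold percentile in each tissue-restricted class, the 4 widest common regions, and the 3 largest changes per direction in width and in fold that passed and did not overlap. Gene lists could not be placed on the build, and peaks with several summits do not occur in the lists, so both measures were dropped. Intervals cover counting error only.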

Additional observations from a re-analysis of the deposited data

Results flagged for a closer look

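Heart DMR11 covered 11.2466 Mb with its H3K4me3 peaks, and its gap to the nearest other heart library was a larger part of the range of the 5 than chance usually gives. The other heart libraries covered 23.7 to 27.1 Mb. Among 34 sets of library values checked in the same way this was the 1 set marked, and chance marks about 1 in 20. Without heart DMR11 there were 2267 heart-only regions in place of 808, 2105 common regions that differed in width in place of 1645, and 666 that differed in fold in place of 686.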

How the results depend on the processing

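No call of width or fold at a common region turned direction under another normalisation, series or left-out library, but counts moved. Regions that differed in width numbered 160 without normalisation, 1085 with libraries of the do series (liver DMR1 and DMR4, heart DMR2 and DMR4), 816 with the replicate block of animals DMR1 and DMR4, and 512 to 2105 when a library was left out. Those that differed in fold numbered 1414 after median centring (512 higher in liver, 902 in heart), 1 without normalisation, 60 in the do series, and 46 to 713 when a library was left out. Requiring peaks to cover 50% of a region left 255 heart-only and 4414 common regions. Heart-only regions numbered 3626 in the do series, 2938 in the paired animals and a median of 3062.5 over pairs of heart libraries. Leaving out a library gave 2651 to 10186 liver-only and 817 to 2267 heart-only regions.

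Among the measures of form, log2 bases covered was -0.13 in the do series and -0.13 with the replicate block, of the opposite sign to the 0.11 over all libraries. Leaving out a library moved the differences from -0.28 to 0.0609 (number of peaks), -0.20 to 0.42 (bases covered), -0.29 to 0.81 (median width), -1.14 to 7.13 points (peaks of 2 kb or more) and -0.31 to 0.74 (fold). The summit excess ran from -0.79 to 6.98 bases.

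With the replicate block, all H3K27ac and H3K4me1 differences that had passed had an exact adjusted p of 0.1875. For peak presence these were 76.0 and -67.9 points for H3K27ac and 53.2 (liver-only) and 17.8 (common) for H3K4me1, whose heart-only difference was -5.04. For bases covered they were 46.7, -43.2, 10.7 (wider in heart) and 12.5 (not called). With equal numbers of peaks, H3K27ac at common regions was -3.24 points and at regions not called for width -1.04, H3K4me1 was -1.12 (common) and -5.27 (heart-only), and its covered bases differed by 1.02 (wider in heart) and 2.17 (not called). With −log10 q of at least 4 those were 14.0 and 14.4 points, no longer past the threshold. Leaving out a library gave ranges of -4.51 to 2.95 (H3K27ac, common), -2.90 to 7.04 (H3K4me1, heart-only), -6.25 to 4.27 (H3K27ac, not called), 11.3 to 16.7 (H3K4me1, wider in heart) and 11.7 to 17.1 (H3K4me1, not called). The median log2 ratio of liver factors was 3.89 with equal numbers of peaks. Differences from other species ran from -0.35 to 0.75 (naked mole-rat), -0.37 to 0.73 (guinea pig) and -0.91 to 0.19 (mouse). The causes were not tested. The pairs of heart libraries, and the settings for other marks at regions called for width, were chosen after seeing the data. Peak lists give no read depth, so missing peaks may be undetected.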
